A study of Caenorhabditis elegans with 21 samples.

Results

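The genes described here are the 70 genes of Caenorhabditis elegans whose name starts with abu- (14 genes) or pqn- (56 genes) in the WBcel235 annotation, out of 22037 genes in the tables. Membership went by name alone, but this name rule was chosen with earlier results of these data known. Each of the 70 had a row in the tables. RNA was sequenced from whole young adults of the wild-type strain N2 and of 6 mutant strains, with 3 libraries each. The single mutants were hif-1(ia4), vhl-1(ok161), egl-9(sa307) and rhy-1(ok1402). The double mutants were egl-9(sa307);vhl-1(ok161), and, with both genes on the same chromosome, egl-9(sa307) hif-1(ia4). Below, strains are written without their alleles. The worms had no visible eggs and grew on NGM plates with OP50 bacteria, and a library came from 30 to 50 worms. No label ties the 3 libraries of a strain to separate cultures, so the p-values cover the spread between samples alone, which may be technical.

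The pharynx, the feeding organ of the worm, is lined by its own cuticle, which is shed and rebuilt at each molt. The abu genes (activated in blocked unfolded protein response) were named for their induction by endoplasmic reticulum stress in worms that lack xbp-1. Many of them encode repetitive proteins rich in glutamine, asparagine and cysteine that are made in the pharynx in step with the molting cycle and form part of this cuticle. The pqn name (prion-like, glutamine- and asparagine-rich) rests on amino acid composition, so it covers paralogs of the abu genes together with unrelated genes. Examples of the latter are pqn-59, which encodes a UBAP2-like RNA-binding protein, and pqn-41, a glutamine-rich gene linked to the death of the linker cell in males. The hydroxylase EGL-9 modifies the hypoxia-inducible factor HIF-1 when oxygen is present, the modified protein is bound by VHL-1 and degraded, and RHY-1 helps to keep HIF-1 low by acting through EGL-9. The series asks how these genes are ordered when the whole transcriptome is the phenotype, and the comparisons below ask where the abu and pqn genes stand in that order. In RNA from whole worms, fewer cells of a type and less RNA per cell cannot be told apart, and the tissue of origin was not measured.

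Libraries held 7329864 to 10102598 estimated counts, and 15508 to 16329 genes had a count. Levels are CPM, counts scaled to library size after TMM. A gene is called raised or lowered at a Benjamini-Hochberg adjusted p below 0.05 in edgeR's quasi-likelihood test over 13043 genes, with n = 3 libraries per strain. Of the mutated genes, vhl-1 had 0 CPM in each egl-9;vhl-1 and vhl-1 library, and hif-1 RNA was at 17.7 ± 4.0 CPM (SD, n = 3) in hif-1 and 13.7 ± 0.337 CPM in egl-9 hif-1 against 115 ± 14.2 CPM in N2. The egl-9 and rhy-1 RNAs, both hif-1 targets, were not lowered in their own mutants, with egl-9 at 94.2 ± 8.54 CPM in egl-9 against 20.6 ± 1.57 CPM in N2 and rhy-1 at 168 ± 9.49 CPM in rhy-1 against 37.2 ± 3.13 CPM. A set of 6 known hif-1 target genes (nhr-57, cysl-2, rhy-1, sqrd-1, egl-9 and phy-2) stood 4.71, 4.54 and 4.76 above N2 on the log2 scale in the 3 egl-9 libraries, 3.66, 3.59 and 3.70 in rhy-1, 2.58, 2.73 and 2.63 in vhl-1 and 4.64, 4.72 and 4.71 in egl-9;vhl-1. The same mean was -0.24, -0.40 and -0.23 in hif-1 and -0.56, -0.49 and -0.59 in egl-9 hif-1, so libraries of 1 strain lay close together for this set. The 6 genes did not all fall without hif-1. Against N2, 2 were raised and 2 lowered in hif-1 (8.17% and 5.99% of all tested genes). In egl-9 hif-1 1 was raised and 3 lowered (3.62% and 3.24%). The set holds egl-9 and rhy-1, which are themselves mutated in some of the strains.

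Of the 70 genes, 58 had enough counts to be tested (12 abu and 46 pqn). The other 12 were abu-2, abu-5, pqn-10, pqn-16, pqn-73, pqn-76, pqn-78, pqn-79, pqn-84, pqn-90, pqn-91 and pqn-94, and their highest library reached 0.532 CPM among the abu genes and 1.07 CPM among the pqn genes. The tested genes were divided at set limits by their range over the 21 libraries. In 18 of them, called steady here and pqn genes without exception, the highest library was under 2 times the lowest. A further 25 (12 abu and 13 pqn) spanned at least 10-fold or included a library at 0, and 15 pqn genes lay between these limits. Some of the 25 had few counts over all libraries, such as pqn-29 with 77 and pqn-26 with 126. Their range is uncertain. In N2, the highest level per transcript length belonged to the steady genes pqn-59 (303 ± 24.6 TPM, SD, n = 3), pqn-22 (219.5 ± 17 TPM) and pqn-51 (161 ± 18.5 TPM). In egl-9 worms abu-14 (198 ± 59.7 TPM) stood next to pqn-59 (289 ± 26.1 TPM), while in N2 abu-14 was at 2.23 ± 3.12 TPM. The summed level of the 56 pqn genes stayed between 2566 and 3275 CPM in all 21 libraries, so the wide movements described below are those of the abu genes and a minority of pqn genes.

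**Figure D1:**
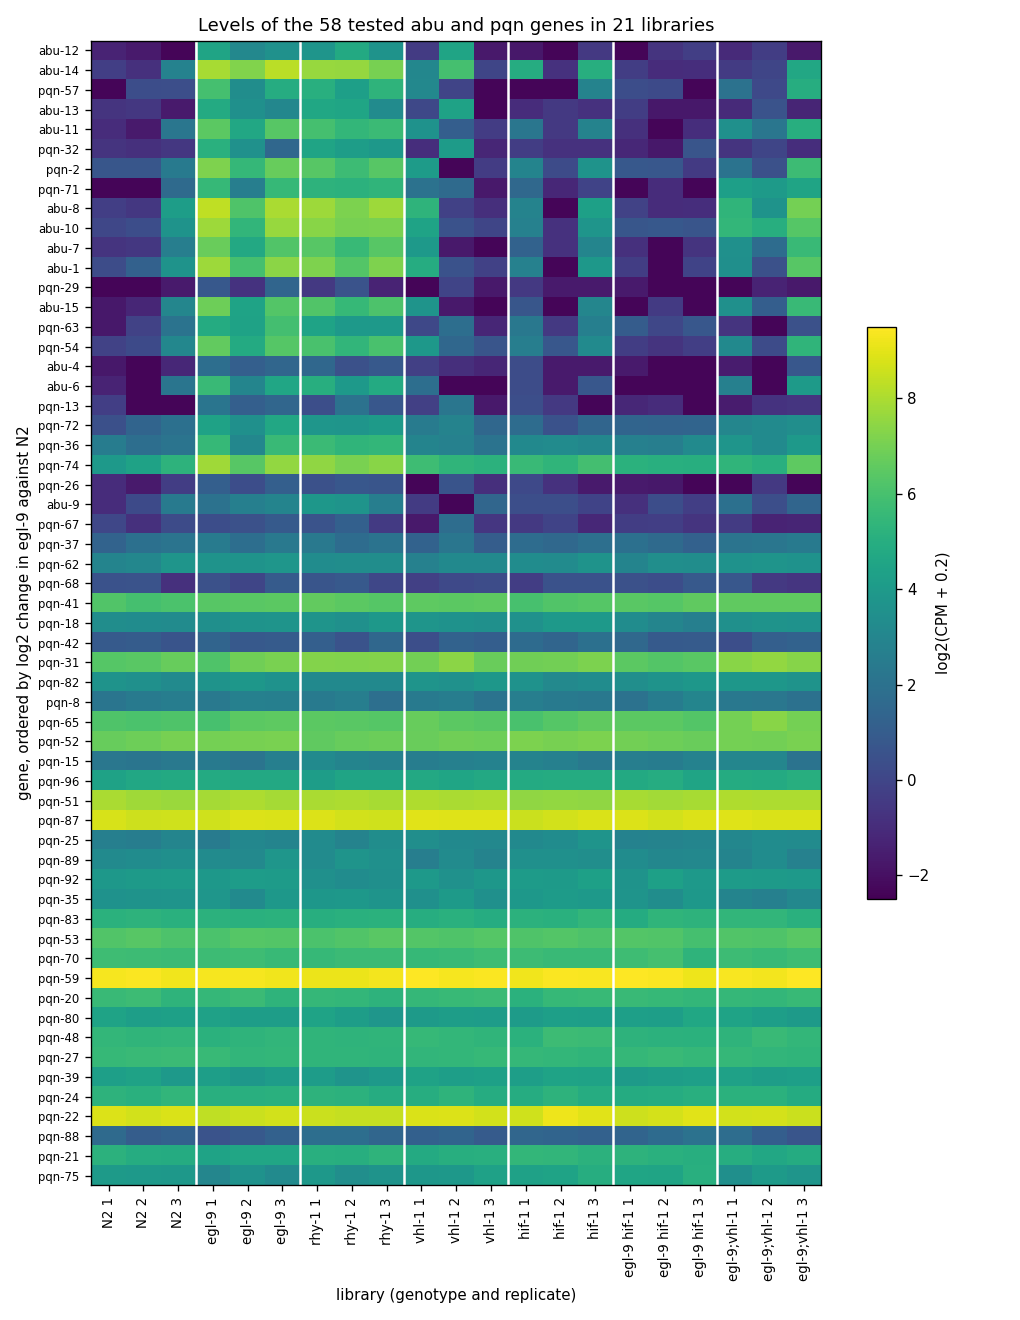
Levels of the 58 tested abu and pqn genes as log2(CPM + 0.2), with 1 column per library (3 per strain, white lines between strains) and genes ordered from top to bottom by their log2 change in egl-9 against N2. The upper 25 rows, the genes that spanned at least 10-fold or included a library at 0, are mostly bright in the egl-9 and rhy-1 columns and darker in N2 replicates 1 and 2, vhl-1 replicate 3, hif-1 replicate 2 and egl-9 hif-1, and the rows below hold the 18 steady genes and the 15 genes between these classes.

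Loss of egl-9 came with high abu RNA. The 14 abu genes summed to 5.37, 6.36 and 77.3 CPM in the 3 N2 libraries and to 1413, 437 and 1222 CPM in egl-9, so the lowest egl-9 library was above the highest N2 library. In N2, replicate 3 was well above replicates 1 and 2. Of the 14 abu genes 11 were raised in egl-9 and none was lowered, where 14.7% of the 13043 tested genes were raised and 11% lowered (25.7% called in all). Of the 56 pqn genes 13 were raised and 2 lowered. The abu count rested in part on N2: it was 6 of 14 without N2 replicate 2, 7 without N2 replicate 1, 12 without N2 replicate 3, and 7 when only N2 and egl-9 libraries were fitted. 5 of the 11 abu calls (abu-4, abu-11, abu-12, abu-13 and abu-14) held in each of the alternatives run, 28 or 29 per gene. Of these, abu-4 and abu-12 had 3 counts each over the N2 libraries and abu-13 had 9. These genes passed the count filter through strains in which they were higher, so their calls add little support.

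abu-14, whose product has been placed in the pharyngeal cuticle, had 0.62, 0.353 and 6.88 CPM in N2 and 244, 149 and 309 CPM in egl-9. Its log2 change was 6.53 ± 1.5 (adjusted p = 0.00464), and its lowest egl-9 library was far above its highest N2 library. abu-11, which extends lifespan when its copy number is raised and has been placed downstream of sir-2.1, had 0.31, 0.118 and 4.46 CPM in N2 and 88.5, 25.8 and 82.3 CPM in egl-9, a log2 change of 5.38 ± 1.11 (adjusted p = 0.00221). abu-10 had 0.827, 1.06 and 12.3 CPM in N2 and 215, 42.5 and 199.9 CPM in egl-9, a log2 change of 5.05 ± 1.1 (adjusted p = 0.00318). For both genes replicate 2 was the lowest of the egl-9 libraries and the groups did not overlap. abu-8 had 0.62, 0.471 and 17.9 CPM in N2 and 324, 72.2 and 253 CPM in egl-9, and changed by 5.14 ± 1.42 (adjusted p = 0.0151) on the log2 scale. abu-1 had 1.03, 2.12 and 12.4 CPM in N2 and 211, 63 and 168 CPM in egl-9, and changed by 4.87 ± 1.41 (adjusted p = 0.0191) on the log2 scale. The other abu genes of chromosome V changed by similar amounts on the log2 scale: abu-7 by 4.97 ± 1.34 (adjusted p = 0.0127), abu-15 by 4.79 ± 1.42 (adjusted p = 0.022) and abu-6 by 4.26 ± 1.35 (adjusted p = 0.0354). abu-13 rose from 0.413, 0.471 and 0.121 CPM to 28.5, 11.4 and 8.18 CPM, a log2 change of 5.51 ± 1.41 (adjusted p = 0.00922). abu-4 and abu-12 had 3 counts each over the N2 libraries, so their change is given as a ratio of counts. abu-12 was 128-fold higher (95% counting interval 43.5 to 624, adjusted p = 0.0072), at 22.8, 8.51 and 11.7 CPM in egl-9. abu-4 was 23.4-fold higher (95% counting interval 7.66 to 116, adjusted p = 0.00159), at no more than 3.32 CPM in any egl-9 library. abu-9 was the tested abu gene that did not pass, with 0.31, 0.942 and 5.07 CPM in N2, 3.92, 6.12 and 7.25 CPM in egl-9 and a log2 change of 1.48 ± 0.76 (adjusted p = 0.18).

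Among the pqn genes, pqn-57 had 0, 1.06 and 1.09 CPM in N2 and 62.9, 10.1 and 29.9 CPM in egl-9, a log2 change of 5.62 ± 1.63 (adjusted p = 0.0191). pqn-2 went from 1.45, 1.41 and 5.07 CPM to 144, 45.3 and 103 CPM, a log2 change of 5.23 ± 1.34 (adjusted p = 0.00964). pqn-71 had no count in N2 replicates 1 and 2 and 2.9 CPM in N2 replicate 3, against 46.4, 5.98 and 47 CPM in egl-9, a log2 change of 5.16 ± 1.0 (adjusted p = 0.00138). In these 3 genes, too, N2 replicate 3 held the highest N2 value and egl-9 replicate 2 the lowest egl-9 value, and the groups did not overlap. pqn-32 (5.25 ± 1.41, adjusted p = 0.0124), pqn-63 (4.57 ± 0.84, adjusted p = 0.000912), pqn-54 (4.43 ± 1.12, adjusted p = 0.00891) and pqn-36 (2.98 ± 0.5, adjusted p = 0.000341) rose as well on the log2 scale. pqn-72 and pqn-74 were raised as well, and are named after their values were seen. pqn-74 had 15.1, 21.3 and 38 CPM in N2 and 224, 82 and 185 CPM in egl-9, a log2 change of 2.73 ± 0.44 (adjusted p = 0.000288), and pqn-72 changed by 3.06 ± 0.38 (adjusted p = 5.74e-06). The remaining raised genes were pqn-13, pqn-26 and pqn-29, named for completeness after their values were seen, and the steady gene pqn-41. None of the first 3 was above 4.27 CPM in egl-9, and pqn-41 rose by 0.33 on the log2 scale. Over the N2 libraries pqn-13 had 6 counts, pqn-26 9, pqn-29 1 and pqn-32 11. These genes, too, passed the count filter through other strains. The lowered genes were pqn-21, with a log2 change of -0.48 ± 0.11 (adjusted p = 0.00203), and pqn-75, with -0.7 ± 0.22 (adjusted p = 0.0205).

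**Figure D2:**
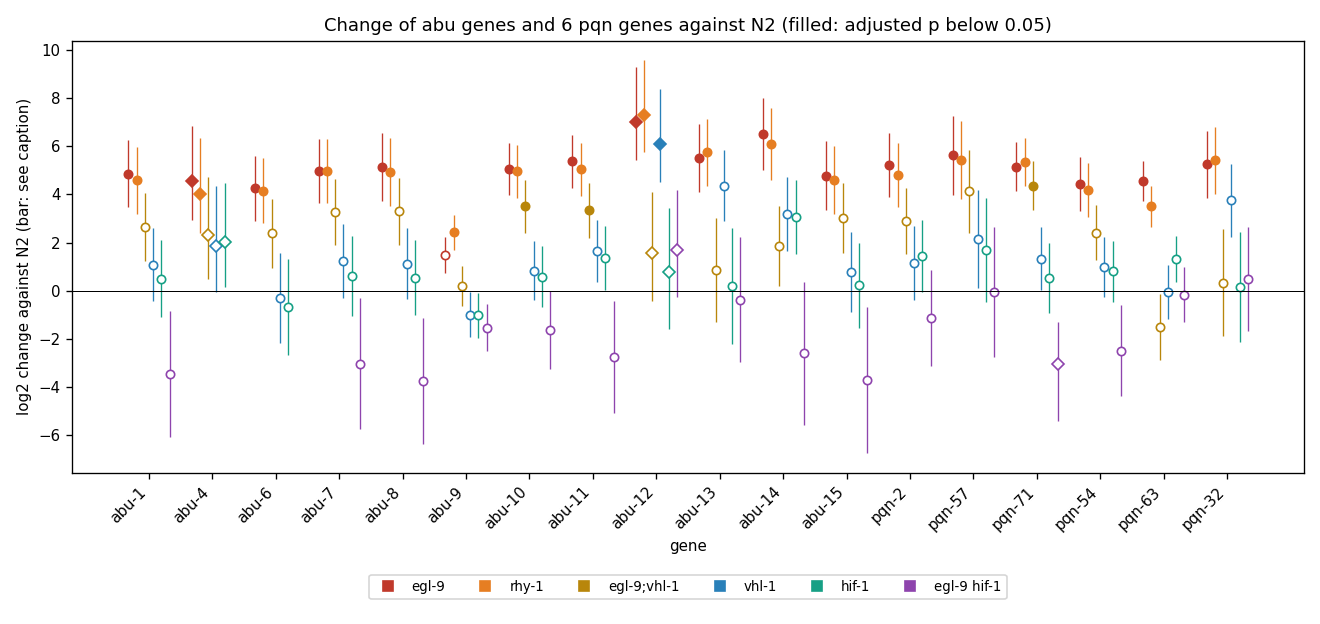
Log2 change against N2 of the 12 tested abu genes and 6 pqn genes in the 6 mutant strains, filled where the adjusted p is below 0.05 and open otherwise. Circles are fitted changes with a standard error derived from the test, diamonds are ratios of counts with a 95% counting interval for genes with 1 to 3 counts in a strain, and no point is drawn where a strain had no count or both strains had 3 counts or fewer; the egl-9 and rhy-1 points lie close together near the top and the open egl-9 hif-1 points lie mostly below 0.

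Loss of rhy-1 also came with high abu RNA. The abu genes summed to 1028, 759 and 887 CPM in the rhy-1 libraries, each above the highest N2 library, with less spread between libraries than in egl-9. Of the 14 abu genes 12 were raised and none lowered, and of the 56 pqn genes 13 were raised and 3 lowered. The background was that 16.6% of all tested genes were raised and 12.7% lowered (29.3% called). Without N2 replicate 2 the abu count was 6, and without N2 replicate 1 it was 7. The calls of abu-4, abu-12 and abu-13 have the same limit of few N2 counts as in egl-9. Both comparisons use the same N2 libraries, so the values are set side by side without a measure of likeness. abu-14 was at 203, 192 and 129.8 CPM, with a log2 change of 6.11 ± 1.49 (adjusted p = 0.00649) in rhy-1 and 6.53 in egl-9. abu-8 was at 212, 141 and 215 CPM, with 4.95 ± 1.42 (adjusted p = 0.0165) in rhy-1 and 5.14 in egl-9. abu-12 was 158-fold higher (95% counting interval 53.8 to 769, adjusted p = 0.00449). abu-9, not called in egl-9, passed here at 14, 13.1 and 6.0 CPM with a log2 change of 2.42 ± 0.74 (adjusted p = 0.0212). This call was lost in 5 of 28 alternatives, and the difference between the 2 strains was not tested. Of the pqn genes, pqn-57 (5.43 ± 1.63, adjusted p = 0.0209), pqn-32 (5.42 ± 1.39, adjusted p = 0.00904), pqn-71 (5.36 ± 1.0, adjusted p = 0.00098), pqn-2 (4.8 ± 1.34, adjusted p = 0.0142) and pqn-54 (4.19 ± 1.12, adjusted p = 0.0114) changed most. The other raised genes included pqn-31 (adjusted p = 0.00577), at 153, 152 and 157 CPM, and pqn-41 (adjusted p = 0.00372), at 97.3, 87.6 and 79.5 CPM. The lowered genes had small log2 changes, namely pqn-92 with -0.58 ± 0.15 (adjusted p = 0.0052), pqn-27 with -0.29 ± 0.08 (adjusted p = 0.00571) and pqn-22 with -0.31 ± 0.12 (adjusted p = 0.0499), and the pqn-22 call was lost in 13 alternatives.

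When hif-1 was also mutated, the abu genes stood at the low end of N2. In egl-9 hif-1 they summed to 5.26, 4.3 and 5.01 CPM, below the lowest N2 library in each case, with the narrowest spread of the 7 strains (SD 0.498 CPM). Against N2, no abu gene was called in this strain by edgeR's quasi-likelihood test (0 at an unadjusted p below 0.05, 0 by DESeq2). 2 pqn genes were raised and none lowered, where 3.62% of tested genes were raised and 3.24% lowered (6.85% called). The raised genes were pqn-75 (adjusted p = 0.0296) and pqn-41 (adjusted p = 0.0201), with pqn-41 at 86.9, 79.6 and 95.4 CPM. Of 29 alternatives, the pqn-75 call was lost in 4 and the pqn-41 call in 5. With egl-9 as the reference, 12 of 14 abu genes and 13 of 56 pqn genes were lowered and 3 pqn genes were raised. Of all tested genes, 13.1% were lowered and 8.07% raised (21.2% called). abu-14 was at 0.598, 0.315 and 0.32 CPM in egl-9 hif-1, a log2 change of -9.13 ± 1.89 (adjusted p = 0.00258) against egl-9. abu-8 was at 0.718, 0.315 and 0.32 CPM, a log2 change of -8.9 ± 1.99 (adjusted p = 0.00455), and abu-11 at 0.359, 0 and 0.32 CPM, a log2 change of -8.13 ± 1.46 (adjusted p = 0.000829). abu-6 had no count in any egl-9 hif-1 library and was at least 255-fold lower (adjusted p = 0.0103) than in egl-9, with the floor taken as 3 counts over the group. pqn-71 was 311-fold lower (95% counting interval 106 to 1511, adjusted p = 0.000506) than in egl-9, and pqn-63 changed by -4.74 ± 0.85 (adjusted p = 0.000821) on the log2 scale. For each of the 12 lowered abu genes the 3 egl-9 hif-1 libraries lay below the 3 egl-9 libraries. These genes were picked by their calls in the same libraries, so this adds no support. The share of all tested genes with such a separation was not computed. The 3 genes that were higher in egl-9 hif-1 than in egl-9 were pqn-75 (1.45 ± 0.21, adjusted p = 2.94e-05), pqn-21 (0.59 ± 0.11, adjusted p = 0.000262) and pqn-88 (0.89 ± 0.31, adjusted p = 0.0427), the first pair being the genes lowered in egl-9 against N2. pqn-88 was named after its values were seen and did not exceed 3.84 CPM.

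The change in egl-9 hif-1 was compared with the sum of the changes in egl-9 and hif-1 as an interaction. It was negative and called for 7 abu and 12 pqn genes and positive for none of the 70, where 13.5% of tested genes had a negative and 8.42% a positive called interaction (22% in all). The abu genes were abu-1, abu-4, abu-7, abu-8, abu-10, abu-11 and abu-14, and the value for abu-14 was -12.19 ± 2.47 (adjusted p = 0.00267) on the log2 scale.

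**Figure D3:**
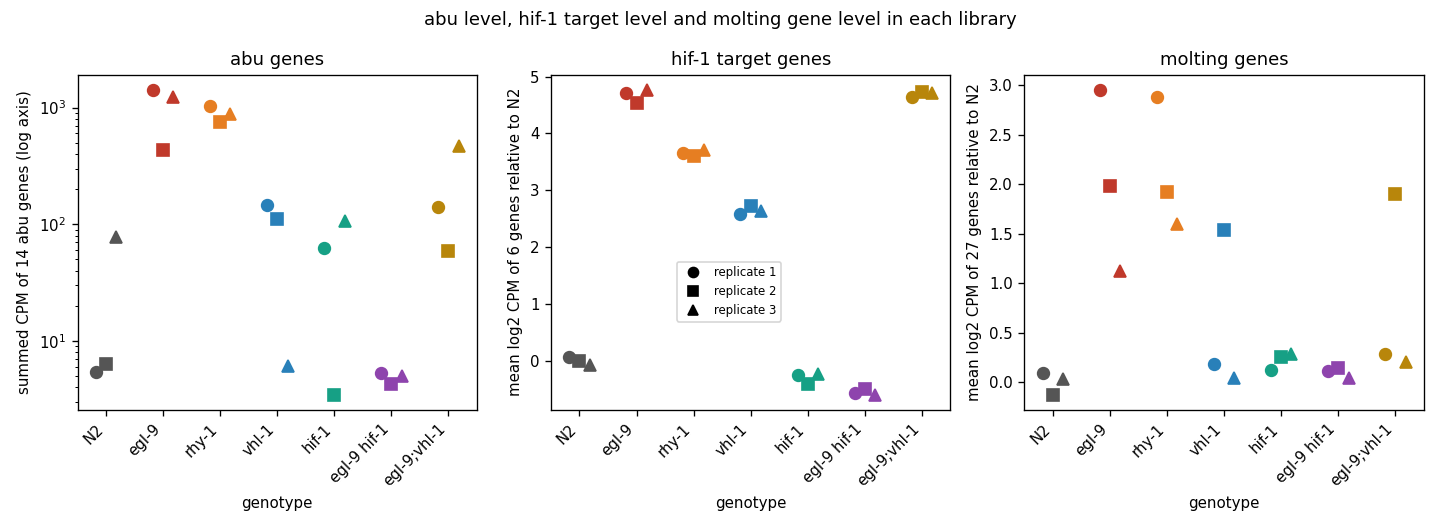
Each point is 1 library: summed CPM of the 14 abu genes on a log axis (left), mean log2 CPM of 6 hif-1 target genes relative to N2 (middle) and mean log2 CPM of 27 molting genes relative to N2 (right), by strain. Symbols mark the replicate number, which does not link libraries of different strains; the abu sum spans 5.37 to 77.3 CPM within N2 and 6.10 to 146 CPM within vhl-1, while the hif-1 target means of a strain lie close together.

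The loss of vhl-1 gave no uniform abu change. The abu genes summed to 146, 110.2 and 6.1 CPM in the 3 vhl-1 libraries, from the level of N2 replicates 1 and 2 to above N2 replicate 3. 1 abu gene (abu-12) and 1 pqn gene (pqn-41) were raised and none was lowered, where 6.28% of tested genes were raised and 5.92% lowered (12.2% called). The abu-12 call came from replicate 2, with 0.548, 22.5 and 0.115 CPM in the 3 libraries. abu-12 was 68.3-fold higher (95% counting interval 23 to 334, adjusted p = 0.0424) than in N2, and the call was lost in 17 of 28 alternatives. pqn-41 was at 91.3, 88.6 and 91.1 CPM against 74.7, 62.6 and 68.2 CPM in N2, a log2 change of 0.4 ± 0.09 (adjusted p = 0.00441), and kept its call in each alternative. Compared with vhl-1, egl-9 had 3 abu and 8 pqn genes raised and 2 pqn genes lowered, where 7.34% of tested genes were raised and 4.36% lowered (11.7% called). With only these 2 strains in the fit, 2 of the 70 genes were called.

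Within vhl-1, the abu genes were high in different libraries. abu-8 had 38.8, 0.672 and 0.345 CPM in vhl-1 replicates 1, 2 and 3, and abu-10 had 22.1, 1.23 and 0.806 CPM. abu-13 had 0.877, 20.9 and 0 CPM in the same libraries, and abu-14 had 8.0, 61.1 and 0.806 CPM. Thus abu-8 and abu-10 were high in replicate 1, abu-12, abu-13 and abu-14 were high in replicate 2, and replicate 3 was low for these 5 genes. Among the 24 members raised in egl-9, 15 were higher in replicate 1 and 9 were higher in replicate 2, and of the 11 abu genes among them 8 and 3. Any difference was counted, even a small one such as pqn-41 at 91.3 and 88.6 CPM, and the share over all genes was not computed. The neighbours abu-15, abu-6, abu-7 and abu-8 had fractional counts, so they are not separate observations. Of the 27 molting genes 21 were higher in replicate 2 and 6 in replicate 1, and of 5 adult epidermis genes (col-19, col-7, col-62, col-63 and rol-1) 5 were higher in replicate 2. Of 53 other genes of the pharyngeal cuticle and glands, 14 were higher in replicate 1 and 25 in replicate 2, the opposite balance to the abu genes, and the rest were equal. The mean of the molting genes was 0.18, 1.54 and 0.04 above N2 on the log2 scale in the 3 vhl-1 libraries. Replicate 1, with the highest abu sum, had molting genes near the N2 level. Replicate 2, where abu-12, abu-13 and abu-14 were highest, had the highest molting mean of the strain. The part of molting stage in these differences was not tested, and with no replicate of a library the pattern has no error.

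**Figure D4:**
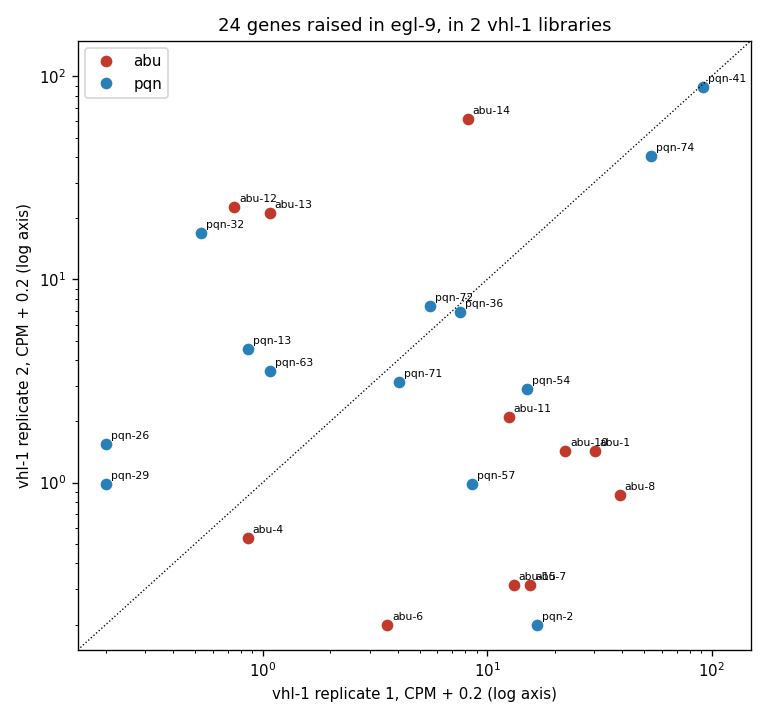
CPM + 0.2 in vhl-1 replicate 1 (horizontal) and replicate 2 (vertical), both on log axes, for the 24 abu and pqn genes raised in egl-9 against N2, and the dotted line marks equal values. abu-12, abu-13, abu-14, pqn-32 and pqn-13 lie above the line and abu-1, abu-6, abu-7, abu-8, abu-10, abu-11, abu-15, pqn-2, pqn-54 and pqn-57 lie below it.

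In the strain with both egl-9 and vhl-1 mutated, the abu sum overlapped with both egl-9 and N2. The abu genes summed to 141, 59.3 and 469 CPM, with replicate 3 above egl-9 replicate 2 and replicate 2 below N2 replicate 3. Against N2, 2 abu genes (abu-10 and abu-11) and 8 pqn genes were raised and 2 pqn genes were lowered, where 16.4% of tested genes were raised and 18% lowered (34.4% called). abu-10 was at 43.7, 32.4 and 79.8 CPM, above the N2 libraries in each case, with a log2 change of 3.5 ± 1.09 (adjusted p = 0.0215). abu-11 was at 11.1, 4.41 and 32.3 CPM, with a log2 change of 3.34 ± 1.15 (adjusted p = 0.0365), and overlapped with N2. Neither call held without N2 replicate 1 or without N2 replicate 2, which left no abu gene called. pqn-71 was at 18.8, 16.4 and 22.5 CPM, above the N2 libraries in each case, with a log2 change of 4.37 ± 1.03 (adjusted p = 0.00407). pqn-36 (1.51 ± 0.52, adjusted p = 0.0334), pqn-65 (0.95 ± 0.13, adjusted p = 1.83e-05), pqn-31 (0.92 ± 0.19, adjusted p = 0.00118) and pqn-41 (0.46 ± 0.09, adjusted p = 0.00041) were also raised on the log2 scale. The remaining raised genes, named after their values were seen, were pqn-72 (1.98 ± 0.39, adjusted p = 0.000597), at 7.97, 9.12 and 10.5 CPM, pqn-25 (0.5 ± 0.19, adjusted p = 0.0418) and pqn-51 (0.22 ± 0.07, adjusted p = 0.0224). In the same comparison pqn-35 (-0.76 ± 0.18, adjusted p = 0.00254) and pqn-27 (-0.21 ± 0.08, adjusted p = 0.0369) were lowered. pqn-65 and pqn-31 were high in each egl-9;vhl-1 library, pqn-65 at 126, 163 and 128 CPM against 73.9, 67.7 and 73.8 CPM in N2 and pqn-31 at 166, 188 and 160.1 CPM against 80.6, 87 and 106 CPM.

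Against egl-9, 3 abu and 7 pqn genes were lower in egl-9;vhl-1 and 2 pqn genes higher, where 6.13% of tested genes were lower and 1.74% higher (7.87% called). The abu genes were abu-12, abu-13 and abu-14. abu-12 had 0.275, 0.601 and 0.107 CPM and changed by -5.35 ± 1.41 (adjusted p = 0.0342), and abu-13 had 0.275, 1.3 and 0.215 CPM and changed by -4.63 ± 1.27 (adjusted p = 0.0392) on the log2 scale. abu-14 had 0.55, 0.802 and 25.5 CPM and changed by -4.67 ± 1.28 (adjusted p = 0.0391). pqn-32 had 0.412, 0.802 and 0.322 CPM, a log2 change of -4.92 ± 1.36 (adjusted p = 0.04), and pqn-63 had 0.412, 0 and 1.18 CPM, a log2 change of -6.08 ± 0.99 (adjusted p = 0.00303). By contrast, abu-8 had 41.1, 12.5 and 128 CPM and its log2 change against egl-9 was -1.84 ± 1.15 (adjusted p = 0.393), which did not pass. Counts of these calls were unstable. Without egl-9 replicate 1 or without egl-9;vhl-1 replicate 1, 2 of the 70 genes were called in place of 12. Without egl-9 replicate 3 or egl-9;vhl-1 replicate 2, 4 were called, and 7 were called without N2 replicate 2, rhy-1 replicate 2 or egl-9;vhl-1 replicate 3. As an interaction of egl-9 and vhl-1, 3 abu genes (abu-12, abu-13 and abu-14) and 7 pqn genes had a negative called value and none a positive one. Of tested genes, 5.49% had a negative and 3.03% a positive called value (8.52% in all). These 3 abu genes were those with high counts in vhl-1 replicate 2, and without that library 2 of the 70 genes were called. Against vhl-1, 3 pqn genes were higher and 1 lower in egl-9;vhl-1 and no abu gene was called by edgeR (3 at an unadjusted p below 0.05, 2 by DESeq2), where 7.04% of tested genes were higher and 9.95% lower (17% called).

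The loss of hif-1 alone left the abu genes uncalled by edgeR (0 at an unadjusted p below 0.05, 0 by DESeq2). They summed to 62.3, 3.46 and 107 CPM in the 3 hif-1 libraries, and replicates 1 and 3 lay far above replicate 2. 4 pqn genes were raised and 1 was lowered, where 8.17% of tested genes were raised and 5.99% lowered (14.2% called). Their log2 changes were small: pqn-25 (0.7 ± 0.19, adjusted p = 0.0164), pqn-75 (0.64 ± 0.2, adjusted p = 0.0417), pqn-18 (0.5 ± 0.16, adjusted p = 0.0361) and pqn-21 (0.32 ± 0.1, adjusted p = 0.0447) rose, and pqn-51 (-0.3 ± 0.07, adjusted p = 0.00826) fell. pqn-75 had 16.1, 15.8 and 14.8 CPM in N2, 7.71, 12 and 9.12 CPM in egl-9, 20.2, 21.5 and 31.1 CPM in hif-1 and 23.1, 22.2 and 33 CPM in egl-9 hif-1. Its values in egl-9 were thus below those of N2, and its values in the 2 strains with a mutated hif-1 were above them. pqn-51 had 182, 188 and 181 CPM in hif-1, below the 250.0, 219 and 210.1 CPM of N2. Of the 5 calls in hif-1, none held in each of the alternatives. Against hif-1, egl-9 hif-1 had 2 pqn genes raised and 5 lowered and no abu gene called by edgeR (2 at an unadjusted p below 0.05, 3 by DESeq2), where 12.5% of tested genes were raised and 17.4% lowered (29.9% called).

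Several of the genes lie side by side in the genome (WBcel235 coordinates). abu-15 (chromosome V, 5158602 to 5159907), abu-6 (chromosome V, 5160678 to 5161892), abu-7 (chromosome V, 5163270 to 5164782) and abu-8 (chromosome V, 5192995 to 5194608) are consecutive members, with 770, 1377 and 28212 bases between neighbours. abu-1 (chromosome V, 10380340 to 10381826) and pqn-2 (chromosome V, 10382442 to 10384063) are transcribed away from each other across 615 bases. The same holds for pqn-57 (chromosome X, 8319594 to 8320989) and abu-9 (chromosome X, 8322111 to 8323343) across 1121 bases. Of these 8 genes, 7 had their highest vhl-1 value in replicate 1, and abu-9 had its highest in replicate 3. The estimated counts of these 8 genes were fractional in 14 to 19 of 21 libraries, which arises where reads match several transcripts, so how counts divide between them is uncertain. abu-10, abu-11, abu-12, abu-13, abu-14 and pqn-71 had whole counts, to within 1e-06, in each library. With the members within 50 kb of each other summed, an alternative chosen after seeing the data, the log2 change in egl-9 was 4.94 ± 1.57 (adjusted p = 0.0315) for abu-15, abu-6, abu-7 and abu-8 together, 4.99 ± 1.43 (adjusted p = 0.0184) for abu-1 and pqn-2, and 3.87 ± 1.06 (adjusted p = 0.0143) for pqn-57 and abu-9. abu-12 (chromosome X, 450446 to 457610), abu-13 (chromosome III, 6941888 to 6945898) and abu-14 (chromosome II, 9225186 to 9227214) have no other member within 50 kb.

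Other genes of the pharyngeal cuticle and glands, taken as chs-2, the chitin synthase of the pharynx, and the genes with the names phat- (gland genes), fipp-, idpa-, idpb-, idpc-, idpp- and nspb-, moved in the same strains. Of 53 genes 35 were tested. In egl-9 26 were raised and 1 lowered, in rhy-1 25 and 1. The counts were 7 and 3 in egl-9;vhl-1, 4 and 0 in hif-1, 1 and 1 in vhl-1 and 1 and 1 in egl-9 hif-1, against the shares of all genes given above. The mean over all 53 genes, as log2(CPM + 0.2), stood 2.12, 1.57 and 2.20 above N2 in the egl-9 libraries and 1.89, 1.77 and 1.82 in rhy-1. Over the 35 tested genes alone, of which 10 had 3 or fewer N2 counts and so passed the count filter through other strains, the median log2 change was 4.76 in egl-9 and 4.44 in rhy-1 (4.14 and 3.84 with those 10 at their bound or ratio of counts), beside medians of 7.59e-05 and 0.02 over all tested genes. The summed level of the 53 genes rose less than these medians. It was 523 to 666 CPM in N2, 893 to 1293 CPM in egl-9 and 1012 to 1099 CPM in rhy-1. chs-2 changed by 1.83 ± 0.32 (adjusted p = 0.000201) in egl-9 and idpc-5 by 5.89 ± 0.89 (adjusted p = 8.30e-05) on the log2 scale. The 5 pharyngeal muscle genes (myo-1, myo-2, tnc-2, tni-4 and ceh-22) had 0 calls by edgeR in egl-9, rhy-1, vhl-1 and hif-1 (0, 0, 2 and 2 at an unadjusted p below 0.05), and 1 lowered gene, tni-4, in egl-9 hif-1 and in egl-9;vhl-1. pha-4, the FoxA factor that sets pharyngeal identity, was raised in each of the 6 mutant strains, all compared with the same N2 libraries and so not separate observations. Its log2 change was 0.54 ± 0.16 (adjusted p = 0.0127) in egl-9, 1.0 ± 0.15 (adjusted p = 3.63e-05) in rhy-1, 0.52 ± 0.15 (adjusted p = 0.0307) in vhl-1, 0.64 ± 0.15 (adjusted p = 0.00879) in hif-1, 0.69 ± 0.15 (adjusted p = 0.00801) in egl-9 hif-1 and 0.55 ± 0.15 (adjusted p = 0.00784) in egl-9;vhl-1. Of 6 pharynx regulators (pha-4, peb-1, tbx-2, hlh-6, ceh-22 and nhr-23) 5 were tested and none was lowered (the shares of all tested genes are those given above), and beside pha-4 the 1 other call was tbx-2, raised in rhy-1 (0.66 ± 0.18, adjusted p = 0.00938) and in hif-1 (0.57 ± 0.19, adjusted p = 0.0441).

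The abu genes take their name from the unfolded protein response, and 20 genes of that response were examined beside them, among them hsp-4, hsp-3, xbp-1, ire-1 and crt-1. In egl-9, 0 were raised and 5 lowered, in rhy-1 0 and 4, in vhl-1 0 and 4, in hif-1 0 and 4, in egl-9 hif-1 2 and 0, and in egl-9;vhl-1 2 and 5. Of all tested genes, the shares lowered in these strains were, in the same order, 11%, 12.7%, 5.92%, 5.99%, 3.24% and 18%, and the shares raised 14.7%, 16.6%, 6.28%, 8.17%, 3.62% and 16.4%. hsp-4, the BiP chaperone gene used as a reporter of this response, changed by -0.34 ± 0.22 (adjusted p = 0.285) in egl-9 and was not called, and hsp-3, the other BiP gene, changed by -0.41 ± 0.1 (adjusted p = 0.00411). Among 7 engulfment genes, a list that holds ced-1, the receptor reported upstream of abu genes in worms, none was called in egl-9 by edgeR (1 at an unadjusted p below 0.05), 1 was raised in rhy-1 and 3 in egl-9;vhl-1, and ced-1 changed by 0.12 ± 0.08 (adjusted p = 0.275) in egl-9.

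Molting genes (27, of which 26 were tested) moved with the abu genes in egl-9 and rhy-1. Their median log2 change was 2.44 in egl-9 and 2.30 in rhy-1 (2.44 and 2.30 with the 1 gene of 3 or fewer N2 counts at its bound or ratio of counts). In each of these strains 13 were raised and none lowered, where 14.7% and 16.6% of all tested genes were raised, against 2 and 0 in vhl-1, 4 and 0 in egl-9;vhl-1 and no call by edgeR in egl-9 hif-1 or hif-1 (0 and 2 at an unadjusted p below 0.05). On the log2 scale, their mean stood 2.95, 1.98 and 1.12 above N2 in egl-9, 2.88, 1.92 and 1.60 in rhy-1 and 0.28, 1.90 and 0.20 in egl-9;vhl-1. The order of libraries was not that of the abu sum. In egl-9, replicate 3 had the lowest molting mean and an abu sum of 1222 CPM. In egl-9;vhl-1, replicate 2 had the highest molting mean and the lowest abu sum. Single abu genes differed in this. abu-13 had 28.5, 11.4 and 8.18 CPM in egl-9, the order of the molting mean, and was highest in egl-9;vhl-1 replicate 2 at 1.3 CPM. abu-8 had 324, 72.2 and 253 CPM in egl-9 and was lowest in egl-9;vhl-1 replicate 2 at 12.5 CPM. N2 replicate 3, with the highest abu sum of N2, had a molting mean of 0.03. Their summed level was 116 to 130.1 CPM in N2, 540.4 to 1805 CPM in egl-9 and 679 to 1623 CPM in rhy-1, and rol-6, a collagen gene on this list, had 0 CPM in N2. mlt-10, a gene expressed in the epidermis during molting, changed by 4.31 ± 0.68 (adjusted p = 0.000243) in egl-9 on the log2 scale. The part of molting stage in the abu differences between strains was not tested.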

How the data were processed

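The authors deposited, for each of the 21 libraries, estimated counts and TPM of 32905 transcripts. Both bcl2fastq 1.8.4 and kallisto are named in the submitters' processing notes. Not given in the sources used here are kallisto's version, the build and the transcripts. Libraries were made with SmartSeq2, per the labels' protocols, which does not mark the strand, so overlapping antisense genes cannot be told apart. The deposited estimated counts were summed per gene (Ensembl 115 annotation of WBcel235, possibly another build than the authors') and rounded. Transcripts matched by transcript name (6039) or sequence name (26559), and 307 unmatched ones, with 0.102 to 0.127% of a library's counts, were kept under their own names. The authors' deposited TPM values, summed per gene, were used for levels between genes only.

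All 21 libraries entered 1 fit with genotype as the only term (edgeR 4.0.16, R 4.3.3, TMM, minimum count 10, robust quasi-likelihood F-test). The test was tried on simulated data with the same spread for every gene and with changes in well-counted genes only. That trial does not cover members with few counts or a wide spread. Standard errors are the log2 change divided by the square root of F. Intervals and floors cover counting error only. There were 11 comparisons and 2 interactions. List levels are means of log2(CPM + 0.2). Alternatives were DESeq2 1.42.0, other size factors, filters, samples, a replicate block and each library left out. Members and lists were chosen with earlier results of these data known. Named were the abu genes and, per comparison with N2, up to 5 raised and 5 lowered pqn genes with the largest change among those at or above 10 CPM; from the lists, up to 4 genes by p in egl-9, or genes named for their known role after their values were seen. The lists were hif-1 targets, molting, other pharyngeal cuticle and glands, pharyngeal muscle, pharynx regulators, unfolded protein response, engulfment, adult epidermis, intestine, body wall muscle, neurons, oocytes and sperm. Replicate numbers were not taken as pairs, as 14 of 63 same-numbered pairs of libraries had a correlation of their deviations above 0.1. Some shared deviation is possible, with 11 of 21 libraries closest to their own number.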

Additional observations from a re-analysis of the deposited data

Results flagged for a closer look

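Interactions picked out 29 results, each because the effect of losing egl-9 differed, by its own test with an adjusted p below 0.05, between worms with and without a second mutation. Values are log2 changes in the double mutant minus the sum of those in the 2 single mutants.

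Between egl-9 and hif-1 the flagged abu genes were abu-1 (-8.84), abu-4 (-7.57), abu-7 (-8.62), abu-8 (-9.44), abu-10 (-7.27), abu-11 (-9.5) and abu-14 (-12.19). The flagged pqn genes were pqn-2 (-7.78), pqn-18 (-1.12), pqn-26 (-4.8), pqn-29 (-7.32), pqn-31 (-0.87), pqn-36 (-3.28), pqn-52 (-0.44), pqn-54 (-7.74), pqn-63 (-6.06), pqn-71 (-8.59), pqn-72 (-3.04) and pqn-74 (-3.29). The values for abu-4, pqn-26, pqn-29 and pqn-71, which had 3 or fewer counts in at least 1 of the strains, depend on the prior count of the fit. pqn-52 is named here because it was called, after its values were seen. In 9 of these 19 the call held in each of the alternatives run.

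Between egl-9 and vhl-1 the flagged abu genes were abu-12 (-11.28), abu-13 (-9.0) and abu-14 (-7.87). The flagged pqn genes were pqn-13 (-5.95), pqn-29 (-6.17), pqn-32 (-8.68), pqn-35 (-0.84), pqn-63 (-6.04), pqn-72 (-2.19) and pqn-74 (-2.38). The values for abu-12 and pqn-29 rest on 3 or fewer counts in N2. None of these 10 calls held in each alternative, and 2 genes were called without vhl-1 replicate 2, in which abu-12, abu-13 and pqn-32 were at 22.5, 20.9 and 16.8 CPM. In that library the molting genes stood 1.54 above N2 on the log2 scale, and their part in these values was not tested.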

How the results depend on the processing

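Values of single genes were compared only where the gene was called in the main fit or in the alternative. None of these changed sign, and sign changes of values called in neither were not recorded. Of the compared values, 4329 kept a call, 488 lost a call and 152 gained one. The counts of called members kept within 1.5 times under TMM against RLE size factors, a minimum count of 30 and summed neighbours (chosen after seeing the data). With no filter on low counts, 1 member was called in place of 2 in vhl-1, 2 of 5 in hif-1, 7 of 12 in egl-9;vhl-1, 3 of 7 in egl-9 hif-1 against hif-1, and 7 of 12 in egl-9;vhl-1 against egl-9. DESeq2 called 7 in vhl-1. With only the genotypes compared in the fit, which leaves fewer samples to estimate the spread, 17 of 26 were called in egl-9, 1 of 2 in egl-9 hif-1, 7 of 12 in egl-9;vhl-1, 4 of 12 in egl-9;vhl-1 against egl-9, 2 of 13 in egl-9 against vhl-1 and 1 of 10 in the interaction of egl-9 and vhl-1. Without the robust variance, also chosen after seeing the data, 4 were called in place of 2 in vhl-1, 7 in place of 4 in egl-9;vhl-1 against vhl-1 and 20 in place of 13 in egl-9 against vhl-1. With the replicate block, 1 member was called in vhl-1 and the other counts stayed within 1.5 times; same-numbered libraries had correlations of -0.29 to 0.253 over 63 pairs, and 11 of 21 libraries were closest to their own number, so the numbers were not treated as pairs. Except where a cause is given, the cause was not tested.

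With each library left out in turn, the called members ranged from 16 to 27 in egl-9, 17 to 29 in rhy-1, 1 to 6 in vhl-1, 1 to 6 in hif-1, 0 to 2 in egl-9 hif-1 and 6 to 14 in egl-9;vhl-1. They ranged from 23 to 30 in egl-9 hif-1 against egl-9, 2 to 9 in egl-9 hif-1 against hif-1, 2 to 14 in egl-9;vhl-1 against egl-9, 2 to 9 in egl-9;vhl-1 against vhl-1 and 7 to 18 in egl-9 against vhl-1. The interactions ranged from 15 to 23 for egl-9 and hif-1 and from 2 to 11 for egl-9 and vhl-1. The lowest counts in egl-9, rhy-1 and egl-9;vhl-1 came without N2 replicate 2. Merging members by protein identity and classing them by cysteine content were not run. Depth limits the genes with 3 or fewer counts in a strain, and the 12 untested genes allow no statement on change.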

Other observations

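Markers of other tissues give the setting of the abu values. Beside the counts below, the shares of all tested genes that were raised and lowered were 14.7% and 11% in egl-9, 16.6% and 12.7% in rhy-1, 6.28% and 5.92% in vhl-1, 8.17% and 5.99% in hif-1, 3.62% and 3.24% in egl-9 hif-1 and 16.4% and 18% in egl-9;vhl-1. Of 5 adult epidermis genes, 4 were raised in egl-9 and in rhy-1, 2 in egl-9;vhl-1 and 1 in vhl-1, and 1 was lowered in egl-9 hif-1; egl-9 libraries stood 4.22, 3.76 and 4.32 above N2 on the log2 scale, and vhl-1 libraries 0.62, 4.14 and 0.01. Of 34 sperm genes (31 tested), 30 were lowered in egl-9;vhl-1, 9 in egl-9 and 1 in rhy-1, and the median log2 change in egl-9;vhl-1 was -1.13. Of 6 oocyte genes, 6 were raised in egl-9;vhl-1, 2 in vhl-1, 2 in egl-9 hif-1 and 1 in rhy-1, and 3 were lowered in hif-1. Of 6 intestine genes (5 tested), 3 were lowered in egl-9, 2 in rhy-1, 2 in egl-9 hif-1 and 2 in egl-9;vhl-1, and 1 was raised in hif-1. Of 5 body wall muscle genes, 1 was raised in each of egl-9, rhy-1, vhl-1 and egl-9;vhl-1. Of 5 neuron genes, 0 were called by edgeR in the 6 mutant strains, and 1, 1, 2, 0, 0 and 1 passed an unadjusted p below 0.05 in the order hif-1, vhl-1, rhy-1, egl-9, egl-9;vhl-1, egl-9 hif-1. The part of these tissues in the abu values was not tested.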
